A study of Mus musculus with 9 samples.

Results

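The striatal expression of 9 genes grouped here as activity-induced effectors was compared between R6/2 and wild-type mice. They are Npas4, Arc, Plk2, Nptx1, Nptx2, Sik1, Ier2, Ier5 and Btg2. The genes were chosen by name, with earlier results of these data known. Every probe set that the platform annotation assigns to exactly 1 of them was taken. A probe set is the group of short array probes that together read 1 transcript. The 9 genes, of 18193 measured, had 16 probe sets of 45037. The brightest probe set by its mean over the 9 arrays stands for the gene, and the other probe sets are given beside it. Striatal tissue of female mice with the strain given as C57Bl/6 / CBA were profiled at 12 weeks of age, 1 array per mouse. The 4 wild-type mice (46, 47, 49 and 66) carried no transgene and were 85 days old. Of the 5 R6/2 mice, R62_86 was also 85 days old, and R62_95, R62_105, R62_107 and R62_109 were 83 days old. R6/2 is a single transgenic line in which the human huntingtin promoter drives the first exon of the human gene, carrying a long CAG stretch, so the fragment is made in cells throughout the body in addition to the normal mouse protein. No other treatment is given in the labels.

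Firing of a neuron lets calcium in, and calcium-driven kinases activate transcription factors such as CREB, SRF and MEF2, which switch on immediate early genes within minutes. Some of these genes encode transcription factors, such as Npas4. Others encode effectors that act at the synapse (Arc, Plk2 and the secreted pentraxin Nptx2), on kinase signalling (Sik1), or on growth and RNA turnover (Ier2, Ier5 and Btg2). Nptx1, also a secreted pentraxin, is not counted here as an immediate early gene. In the striatum, glutamate from cortex and thalamus and dopamine from the midbrain induce immediate early genes in the spiny projection neurons, which make up most striatal neurons.

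In R6/2 mice 6 of the 9 genes, Npas4, Arc, Plk2, Nptx2, Ier5 and Btg2, were lower than in wild-type mice, 0 were higher, and Nptx1, Sik1 and Ier2 did not pass the test. The test was limma on log2 values with a threshold of 0.05 on the Benjamini-Hochberg adjusted p over all genes. By the same test 7.57% of all genes were lower and 9.28% were higher. In each of the 6 genes every R6/2 mouse lay below every wild-type mouse, as it did for 8.09% of all genes. The median log2 difference of the 9 genes, R6/2 minus wild-type, was -0.58, beside -0.02 over all genes. Because the genes were chosen with earlier results known, their counts and median beside those of all genes are a description. Among the 16 probe sets tested on their own, with adjustment over all probe sets, 8 were lower and 0 higher, where 4.57% of all probe sets were lower. Centring each array on the mean of only 5 housekeeping genes gave an overall median of -0.12. The share of higher genes among all called ones was then 23.7% in place of 55.1%, and the 6 genes kept their calls. The number of calls fell to 2 of 9, Npas4 and Nptx2, when the level of cortical marker genes was a covariate. Calls over all genes then fell from 3066 to 352. The cortical mean was itself shifted with genotype, and SEs grew in that fit. They went from 0.30 to 0.44 in Arc, 0.07 to 0.11 in Plk2, 0.10 to 0.15 in Ier5 and 0.15 to 0.23 in Btg2. The same 2 genes were called without the 3 arrays that were highest in choroid plexus markers, where 882 of all genes were called. Those arrays were wild-type mice 47 and 66 and R62_107, so only wild-type mice 46 and 49 stayed in that fit. With age as a covariate the number of calls was 0 of 9, and 30 of all 18193 genes were called. In that fit the genotype difference is R62_86 minus the wild-type mean, because the other R6/2 mice differ from the wild-type mice in age.

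**Figure D1:**
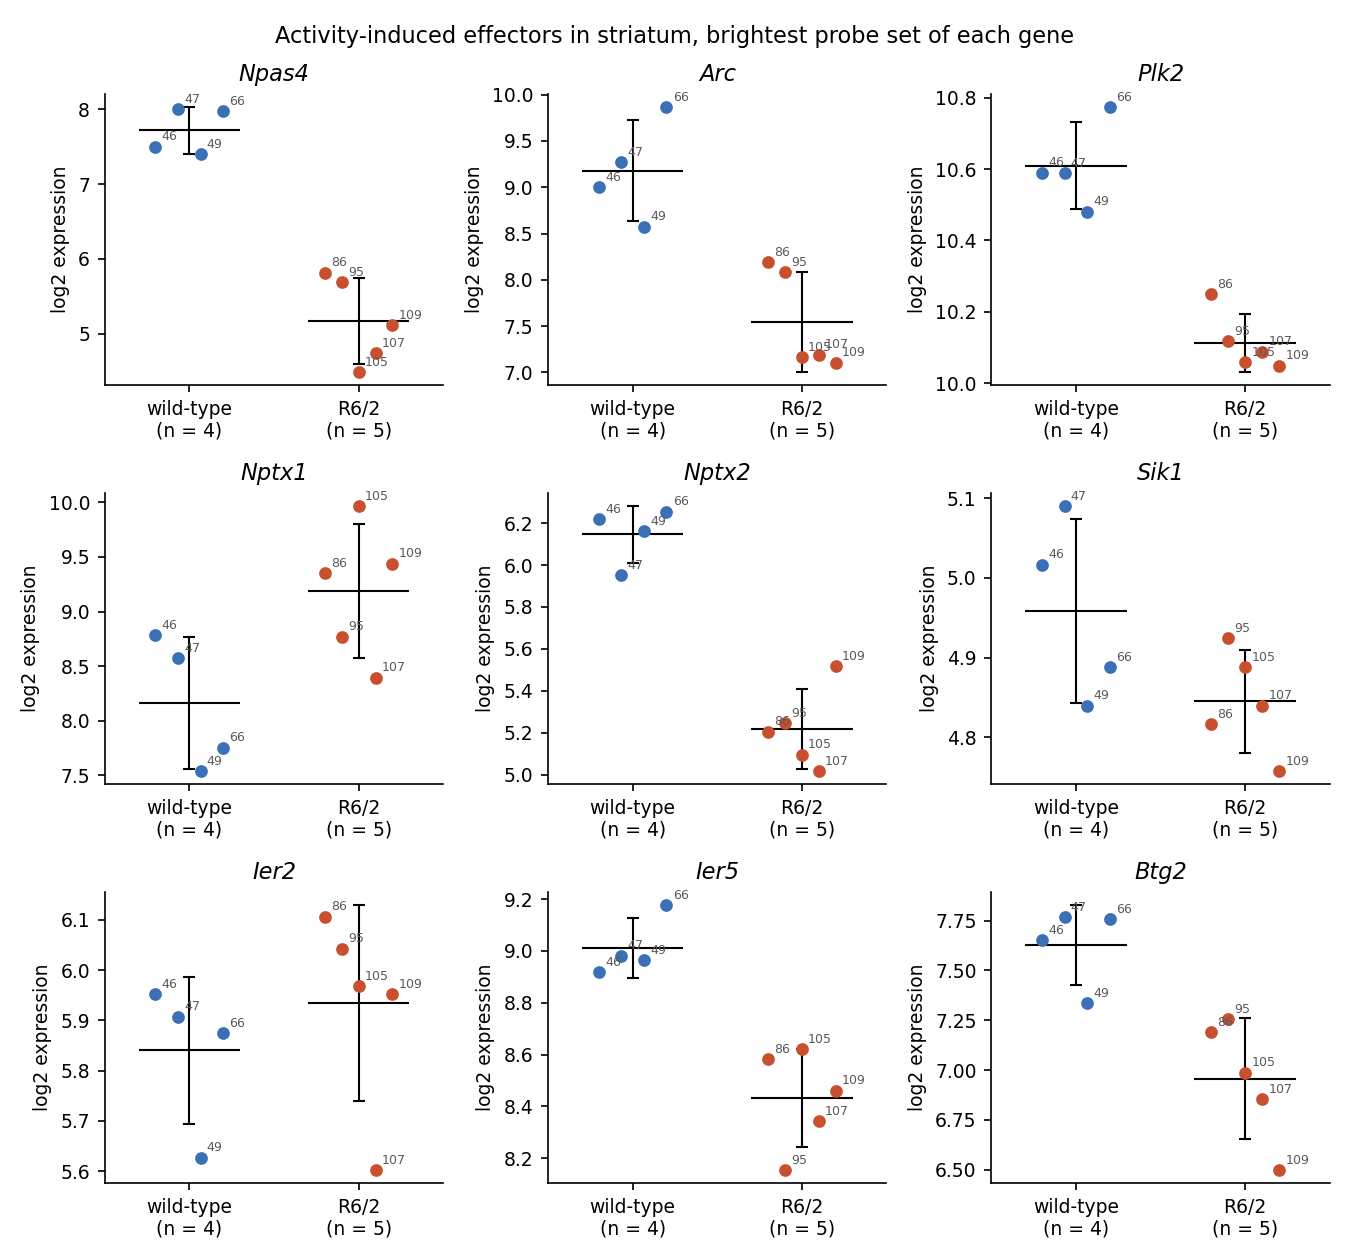
Log2 expression of the main probe set of each of the 9 genes in each mouse (dots, 4 wild-type and 5 R6/2), with the group mean as a line and the SD as a bar. The 2 groups are fully apart for Npas4, Arc, Plk2, Nptx2, Ier5 and Btg2 and overlap for Nptx1, Sik1 and Ier2.

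The arrays were alike in scale, with medians of 5.37 to 5.44. Markers of the tissue were present and shifted with genotype. All 9 measured markers shared by spiny projection neurons were lower in R6/2 mice, and the mean level of these markers per array was 11.58 to 11.91 in the controls, against 9.81 to 10.70 in R6/2. In whole tissue, fewer cells of a type and less RNA per cell cannot be told apart. Markers of cortical projection neurons, which belong to neighbouring tissue, had mean levels of 6.40 to 7.30 in the controls, against 7.07 to 7.86 in R6/2, with 4 of 10 higher and 2 lower. Markers of choroid plexus and ependyma had mean levels of 5.89 to 9.07 in the controls, against 5.40 to 7.48 in R6/2, highest in wild-type mice 66 (9.07) and 47 (8.87) and in R62_107 (7.48), with 0 of 8 past the limma threshold and 0 at an unadjusted p under 0.05. Among other cell types, 5 of 8 astrocyte, 4 of 8 microglial and 2 of 7 oligodendrocyte markers were lower. For endothelial and mural cells it was 0 of 8, also at an unadjusted p under 0.05. Among interneurons, 2 of 3 cholinergic markers (median -0.83) and 3 of 7 GABA interneuron markers (median -0.28) were lower. The part of the spiny neuron, interneuron and glial shifts in the members' differences was not tested.

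Promoter sequences bear on these genes because CREB binds the cyclic AMP response element TGACGTCA and its shorter core TGACGT. The RefSeq promoter table of GRCm38.p6 held 4 of the 9 genes, Npas4, Plk2, Ier5 and Btg2, and the 250 bases before the transcript start listed there were read. The first, second and last of these are shown, 5' to 3' on the strand of the gene, because they hold the core, printed in capitals wherever it lies on either strand. The Npas4 window is chr19:4989972-4990221 on the minus strand. It lies inside the listed span of the gene (chr19:4984353-5003439), so the bases before the far end of that span were not read. The Plk2 window is chr13:110394794-110395043 on the plus strand, and the Btg2 window is chr1:134079156-134079405 on the minus strand. The Plk2, Btg2 and Ier5 windows border the listed spans of their genes.
Npas4: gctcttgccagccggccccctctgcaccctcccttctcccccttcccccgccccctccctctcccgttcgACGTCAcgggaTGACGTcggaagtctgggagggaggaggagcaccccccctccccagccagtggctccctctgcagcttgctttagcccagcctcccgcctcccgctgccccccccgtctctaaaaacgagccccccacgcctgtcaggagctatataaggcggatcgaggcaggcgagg
Plk2: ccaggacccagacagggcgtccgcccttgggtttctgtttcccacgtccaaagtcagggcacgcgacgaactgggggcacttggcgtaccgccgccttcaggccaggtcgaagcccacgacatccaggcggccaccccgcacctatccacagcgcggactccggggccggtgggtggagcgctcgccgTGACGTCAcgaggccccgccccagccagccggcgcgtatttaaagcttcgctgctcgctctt
Btg2: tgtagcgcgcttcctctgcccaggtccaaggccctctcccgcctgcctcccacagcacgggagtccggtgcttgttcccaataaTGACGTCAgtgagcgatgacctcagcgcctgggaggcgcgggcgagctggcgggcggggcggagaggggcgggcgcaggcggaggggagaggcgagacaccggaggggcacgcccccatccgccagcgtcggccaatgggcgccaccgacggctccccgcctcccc
The Plk2 and Btg2 windows each hold 1 full TGACGTCA, at 62 to 55 and at 166 to 159 bases before the start, and the full element contains the core on both strands. The Npas4 window holds 2 separate cores, on the minus strand at 180 to 175 and on the plus strand at 169 to 164 bases before the start. The Ier5 window, chr1:155099637-155099886 on the minus strand, holds no match to TGACGT. Over all 32841 windows of the same length and both strands, 1.55% hold TGACGTCA and 6.47% hold TGACGT. Of 32 other activity-induced genes with a window, 4 hold the full element and 14 the core in at least 1 window. These are counts of genes, whereas the shares above are of single windows, so they are not directly comparable. The motif TCGTG, bound by Npas4 with its partners, is in 13.3% of all windows and lies in those of Plk2 (135 to 131 and 56 to 52 bases before the start) and Ier5 (91 to 87 bases before the start). The second Plk2 match overlaps the full element. Neither TATAAA (12.4% of windows) nor the CArG box bound by SRF (1.47%) is in any of the 4 windows. Only exact matches were counted, so the related letters TATATAAG, which the Npas4 and Ier5 windows hold, were not. Absence of TATAAA is thus not absence of a TATA box. A match describes the letters only, and binding was not measured.

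Npas4, a transcription factor of the bHLH-PAS family that is induced almost only in neurons and adjusts their inhibitory synapses, had the lowest difference of the 9 genes. Its only probe set (1459372_at, gene at chr19:4984353-5003439, GRCm38.p6) read 7.50, 8.01, 7.40 and 7.97 in wild-type mice 46, 47, 49 and 66, and 5.82, 5.69, 4.49, 4.74 and 5.12 in R62_86, R62_95, R62_105, R62_107 and R62_109. The highest R6/2 mouse was thus far below the lowest wild-type mouse. The means were 7.72 ± 0.31 (SD, n = 4) and 5.17 ± 0.58 (SD, n = 5), a log2 difference of -2.55 ± 0.26 (SE, 95% interval -3.13 to -1.97), or 0.171 of the wild-type level (limma, Benjamini-Hochberg adjusted p 0.000285). The call held in every fit that left out 1 mouse (-2.71 to -2.38).

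The list of Npas4 partners and regulators changed in both directions. Of 12 measured genes 2 were lower, 4 were higher and 6 did not pass, with a median difference of 0.13. Camk4, a calcium-dependent kinase that phosphorylates CREB, fell (-1.34 ± 0.14, SE, adjusted p 0.000279), as did the transcription factor Srf (-0.67 ± 0.09, adjusted p 0.000958). Creb1, which encodes CREB itself, rose (0.50 ± 0.06, adjusted p 0.000434), although the mean of its probe sets gave 0.16 (adjusted p 0.153). The dimer partners of Npas4 did not pass, with 0.15 ± 0.09 for Arnt (adjusted p 0.313) and -0.06 ± 0.10 for Arnt2 (adjusted p 0.703, all limma).

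Arc encodes a capsid-like protein that moves to active synapses and drives removal of AMPA receptors from them. Its probe set (1418687_at, chr15:74669081-74672570) read 9.003, 9.27, 8.58 and 9.87 in the wild-type mice and 8.19, 8.08, 7.16, 7.19 and 7.10 in the R6/2 mice, in the same order as above. The groups did not overlap, and R62_86 and R62_95 were the closest to the wild-type mice. The means were 9.18 ± 0.54 (SD, n = 4) and 7.54 ± 0.54 (SD, n = 5), a difference of -1.64 ± 0.30 (SE, interval -2.29 to -0.98), or 0.322 of the wild-type level (limma adjusted p 0.00439). The call was lost with the cortical markers as a covariate (-1.38, adjusted p 0.148) and without the 3 choroid plexus arrays (-1.16, adjusted p 0.0976).

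Of 11 measured regulators and binding partners of Arc, 4 were lower, 2 higher and 5 not past the threshold, with a median of -0.19. Besides Srf, the lower genes included Dlg4, the main scaffold of the postsynaptic density (-0.63 ± 0.10, SE, adjusted p 0.00198), and Camk2b, a kinase that holds Arc at inactive synapses (-0.61 ± 0.10, adjusted p 0.00265). Ube3a, a ubiquitin ligase linked to Arc levels, rose (0.38 ± 0.07, adjusted p 0.00469, limma), but not after centring on housekeeping genes.

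Plk2, a polo-like kinase that weakens synapses after long excitation, fell. Its main probe set (1427005_at, chr13:110395044-110400844) read 10.59, 10.59, 10.48 and 10.77 in the wild-type mice and 10.25, 10.12, 10.06, 10.09 and 10.05 in the R6/2 mice. Both groups were tight and did not overlap. The means were 10.61 ± 0.12 (SD, n = 4) and 10.11 ± 0.08 (SD, n = 5), a difference of -0.50 ± 0.07 (SE, interval -0.66 to -0.33), or 0.709 of the wild-type level (limma adjusted p 0.00157). The second probe set (1443780_at) lay at the lower quartile of the arrays, at 3.58 to 4.11 in the controls and 3.84 to 3.88 in the R6/2 mice. It differed by 0.00 ± 0.09 (SE, adjusted p over probe sets 0.994), and the mean of both probe sets gave -0.25 (adjusted p 0.0224). The Plk2 call was lost with the cortical markers as a covariate (-0.44, adjusted p 0.0779) and without the 3 choroid plexus arrays (-0.42, adjusted p 0.0512).

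Of 6 measured polo-like kinases and Plk2 substrates, 2 were lower, 1 was higher and 3 did not pass (median -0.09). Plk5, a family member expressed in brain, read 7.004, 6.69, 7.002 and 7.10 in the wild-type mice and 5.83, 6.14, 5.84, 5.98 and 6.04 in the R6/2 mice. It fell without overlap (-0.98 ± 0.10, SE, adjusted p 0.000219). Plk4, which controls centriole number, rose by 0.55 ± 0.14 (adjusted p 0.0233), and the Plk2 substrate Sipa1l1, a postsynaptic Rap regulator, fell (-0.40 ± 0.11, adjusted p 0.0349). The call of Plk4 was lost without wild-type mouse 47 or 66, R62_105 or R62_109 and after centring on housekeeping genes. That of Sipa1l1 was lost without wild-type mouse 46, 47 or 66, R62_95, R62_105 or R62_109. Plk1 (-0.13 ± 0.08, adjusted p 0.294) and Plk3 (0.05 ± 0.10, adjusted p 0.788, limma) did not pass.

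The neuronal pentraxins Nptx1 and Nptx2 are secreted at excitatory synapses and cluster AMPA receptors. Nptx2 fell, and Nptx1 did not pass. Nptx2 (1420720_at, chr5:144545887-144557478) read 6.22, 5.95, 6.16 and 6.26 in the wild-type mice and 5.21, 5.25, 5.10, 5.02 and 5.52 in the R6/2 mice. Every R6/2 mouse was below every wild-type mouse. The means were 6.15 ± 0.14 (SD, n = 4) and 5.22 ± 0.19 (SD, n = 5), a difference of -0.93 ± 0.10 (SE, interval -1.16 to -0.70), or 0.525 of the wild-type level (limma adjusted p 0.000373). The second, dimmer probe set of Nptx2 (1449960_at) read 4.05, 4.27, 4.29 and 4.50 against 3.93, 3.92, 3.77, 3.95 and 3.99. It was also apart between the groups, by -0.37 ± 0.09 (SE, adjusted p over probe sets 0.0293), a call that was lost in 6 of the 9 fits without 1 mouse (wild-type 47, 49 or 66, R62_86, R62_105 or R62_107, adjusted p 0.0513 to 0.0696) and without the 3 choroid plexus arrays (0.257). The R6/2 values of this probe set lay at the lower quartile of the arrays (3.84 to 3.901).

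Nptx1 (1434877_at, chr11:119538719-119547820) read 8.78, 8.57, 7.54 and 7.75 in the wild-type mice and 9.35, 8.77, 9.97, 8.39 and 9.44 in the R6/2 mice. The groups overlapped, with R62_107 and R62_95 inside the wild-type range. The means were 8.16 ± 0.61 (SD, n = 4) and 9.18 ± 0.61 (SD, n = 5), a difference of 1.02 ± 0.33 (SE, interval 0.29 to 1.76) that missed the threshold (limma adjusted p 0.0596). It passed without wild-type mouse 46 (1.23, adjusted p 0.0398), without R62_107 (1.22, adjusted p 0.0277), and among the brighter 50% of genes (adjusted p 0.0378). The second probe set (1422130_at) gave 0.76 ± 0.30 (SE, adjusted p over probe sets 0.143).

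The level of Nptx1 moved with that of the cortical markers. In R6/2 mice the order by Nptx1, which was R62_105, R62_109, R62_86, R62_95 and R62_107 from high to low, was also the order by the mean of the cortical markers (7.86, 7.71, 7.66, 7.35 and 7.07). In wild-type mice the order by the cortical mean was 46, 47, 49 and 66 (7.30, 7.04, 6.68 and 6.40), and Nptx1 differed from it only in the last pair. With the cortical mean as a covariate the Nptx1 difference was -0.069 ± 0.194 (SE, limma adjusted p 0.909), whereas that of Nptx2 was -0.96 ± 0.16 (adjusted p 0.0197). Nptx1 minus Nptx2 within each array, a contrast chosen after the values were seen, came to 2.56, 2.62, 1.38 and 1.499 in the controls and 4.15, 3.52, 4.87, 3.38 and 3.92 in R6/2 mice. The groups did not overlap, and the means differed by 1.95. This is a description, with no test, since the contrast was prompted by the values.

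**Figure D2:**
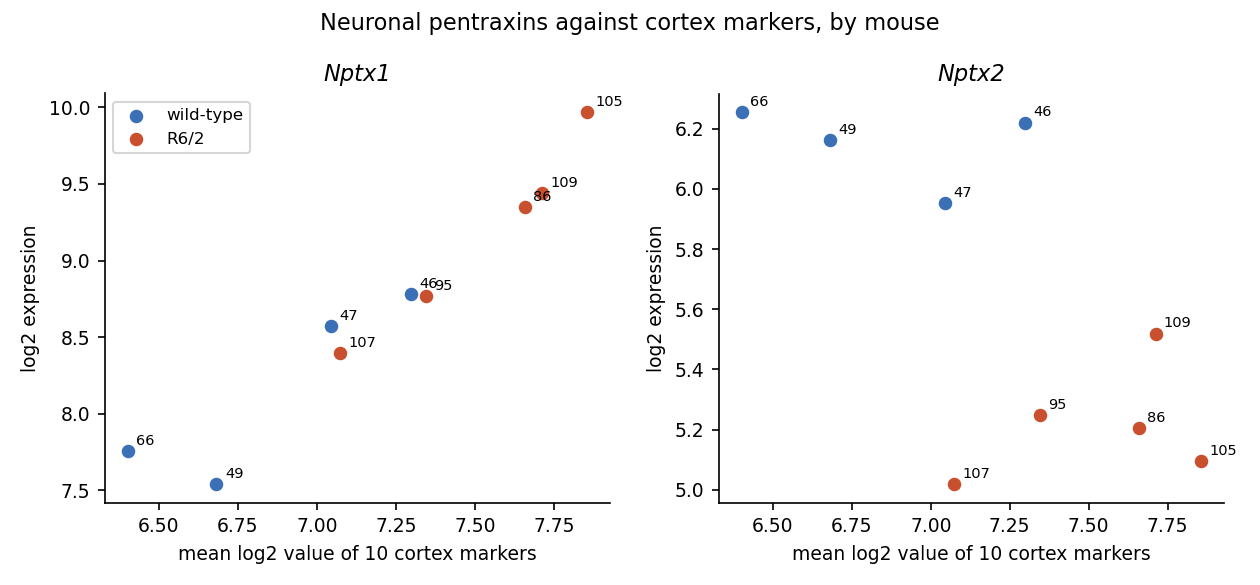
Log2 expression of Nptx1 and Nptx2 in each mouse against the mean log2 level of 10 cortical projection neuron markers in the same array. Nptx1 was higher in mice with a higher cortical mean within both groups, except for wild-type mice 49 and 66, and Nptx2 kept the R6/2 mice at 5.02 to 5.52 below the wild-type mice at 5.95 to 6.26 over the whole range.

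The AMPA receptor subunits and other listed genes of the pentraxin pathway were mostly not past the threshold. Of 7 listed genes 6 were measured, and the pentraxin receptor gene Nptxr was not among them. Of the 6 measured genes 1 was lower and 0 were higher (median 0.02). The lower one was the AMPA receptor subunit Gria3 (-0.26 ± 0.08, SE, adjusted p 0.0369), whose call was lost in 7 of the 9 fits that left out 1 mouse, all but those without wild-type mouse 47 or 49. Adam17, a protease that cleaves the pentraxin receptor, gave -0.22 ± 0.11 (adjusted p 0.178), and Nrn1, a membrane-anchored protein induced by activity, gave 0.64 ± 0.48 (adjusted p 0.398, limma).

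Sik1, a kinase that holds CREB coactivators of the Crtc family in the cytoplasm, did not pass. Its main probe set (1419766_at, chr17:31844248-31855804) read 5.02, 5.09, 4.84 and 4.89 in the wild-type mice and 4.82, 4.92, 4.89, 4.84 and 4.76 in the R6/2 mice. The ranges overlapped. The means were 4.96 ± 0.12 (SD, n = 4) and 4.85 ± 0.06 (SD, n = 5), a difference of -0.11 ± 0.07 (SE, interval -0.27 to 0.04, limma adjusted p 0.297). The second probe set (1459601_at) lay near the bottom of the arrays, at 2.71 to 3.09, and gave -0.03 ± 0.08 (SE). In the salt-inducible kinase pathway 0 of 10 measured genes passed the limma threshold, and 1 had an unadjusted p under 0.05 (median 0.04). That gene was Crtc1 (-0.35 ± 0.13, SE, adjusted p 0.0902), and its relative Crtc2 gave 0.27 ± 0.14 (adjusted p 0.227). The related kinases gave -0.12 ± 0.07 for Sik2 (adjusted p 0.318) and -0.27 ± 0.15 for Sik3 (adjusted p 0.245), and the kinase subunit Prkaca gave 0.16 ± 0.08 (adjusted p 0.192).

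Ier2 and Ier5 are small nuclear proteins of the immediate early response, and only Ier5 fell. Ier2 (1416442_at, chr8:84661331-84662852) read 5.95, 5.91, 5.63 and 5.88 in the wild-type mice and 6.11, 6.04, 5.97, 5.60 and 5.95 in the R6/2 mice. The means were 5.84 ± 0.15 (SD, n = 4) and 5.93 ± 0.20 (SD, n = 5), and the difference of 0.09 ± 0.11 (SE, interval -0.14 to 0.33, limma adjusted p 0.593) turned to -0.014 after centring on housekeeping genes. Ier5, which binds the B55 subunits of the phosphatase PP2A, had 3 probe sets. The main one (1417612_at, chr1:155096367-155099636) read 8.92, 8.98, 8.96 and 9.18 in the wild-type mice and 8.58, 8.16, 8.62, 8.34 and 8.46 in the R6/2 mice, without overlap. The means were 9.01 ± 0.11 (SD, n = 4) and 8.43 ± 0.19 (SD, n = 5), a difference of -0.58 ± 0.10 (SE, interval -0.80 to -0.36), or 0.670 of the wild-type level (limma adjusted p 0.00358). The probe set 1460009_at gave -0.50 ± 0.11 (SE, adjusted p over probe sets 0.0204), which was lost without wild-type mouse 47 (0.0631) and without the 3 choroid plexus arrays (0.186), and 1417613_at gave -0.37 ± 0.12 (0.0727). In both of these the groups were also apart. The Ier5 call was lost with the cortical markers as a covariate (-0.63, adjusted p 0.0704) and without the 3 choroid plexus arrays (-0.49, adjusted p 0.0911).

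Of 7 measured genes of the Ier family and partners of Ier5, 3 were lower, 0 higher and 4 not past the threshold (median -0.03). Ier5l, a relative of Ier5, read 7.41, 7.73, 7.95 and 7.60 in the wild-type mice and 6.24, 6.35, 5.87, 6.15 and 5.99 in the R6/2 mice. The groups were far apart, with a difference of -1.55 ± 0.12 (SE, limma adjusted p 8.04e-05). The B55 subunits Ppp2r2a (-0.60 ± 0.09, adjusted p 0.00124) and Ppp2r2c (-0.28 ± 0.08, adjusted p 0.0309) also fell, the latter not in the 5 fits without wild-type mouse 46, 47 or 66, R62_107 or R62_109. Ier3 gave 0.03 ± 0.13 (adjusted p 0.916), and the heat-shock chaperone Hspa1a gave 0.41 ± 0.18 (adjusted p 0.139).

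Btg2, an antiproliferative protein that recruits the CCR4-NOT deadenylase to messenger RNA, fell. Its main probe set (1416250_at, chr1:134074865-134079155) read 7.65, 7.77, 7.34 and 7.76 in the wild-type mice and 7.19, 7.26, 6.99, 6.85 and 6.50 in the R6/2 mice. The groups did not overlap, and wild-type mouse 49 and R62_95 were closest. The means were 7.63 ± 0.20 (SD, n = 4) and 6.96 ± 0.30 (SD, n = 5), a difference of -0.67 ± 0.15 (SE, interval -1.003 to -0.34), or 0.628 of the wild-type level (limma adjusted p 0.0125). Over all probe sets its adjusted p was 0.0222, and it was 0.0509, 0.0677 and 0.0655 without wild-type mouse 46, 47 and 66. The second probe set (1448272_at) gave -0.34 ± 0.11 (SE, adjusted p over probe sets 0.0694) and its groups overlapped. The call had the least support of the 6: it was lost without moderation of the variance (adjusted p 0.0557), with the cortical markers as a covariate (-0.65, adjusted p 0.193) and without the 3 choroid plexus arrays (-0.51, adjusted p 0.204).

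Among 9 measured genes of the Btg and Tob family and its deadenylase, 1 was lower, 2 were higher and 6 did not pass (median 0.01). Tob1, a relative that also binds the deadenylase, fell (-0.40 ± 0.10, SE, adjusted p 0.0215), a call lost without wild-type mouse 46 (0.0503). Tob2 (0.25 ± 0.07, adjusted p 0.0270) and the deadenylase subunit Cnot8 (0.21 ± 0.06, adjusted p 0.0283) rose, but neither did after centring on housekeeping genes. The Tob2 call was also lost after quantile normalization (adjusted p 0.0508) and without wild-type mouse 46 or 49, R62_86 or R62_109, and that of Cnot8 without wild-type mouse 46, 47 or 66, R62_105, R62_107 or R62_109. Btg1 (-0.20 ± 0.07, adjusted p 0.0792) and Btg4 (0.01 ± 0.06, adjusted p 0.913, limma) did not pass.

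**Figure D3:**
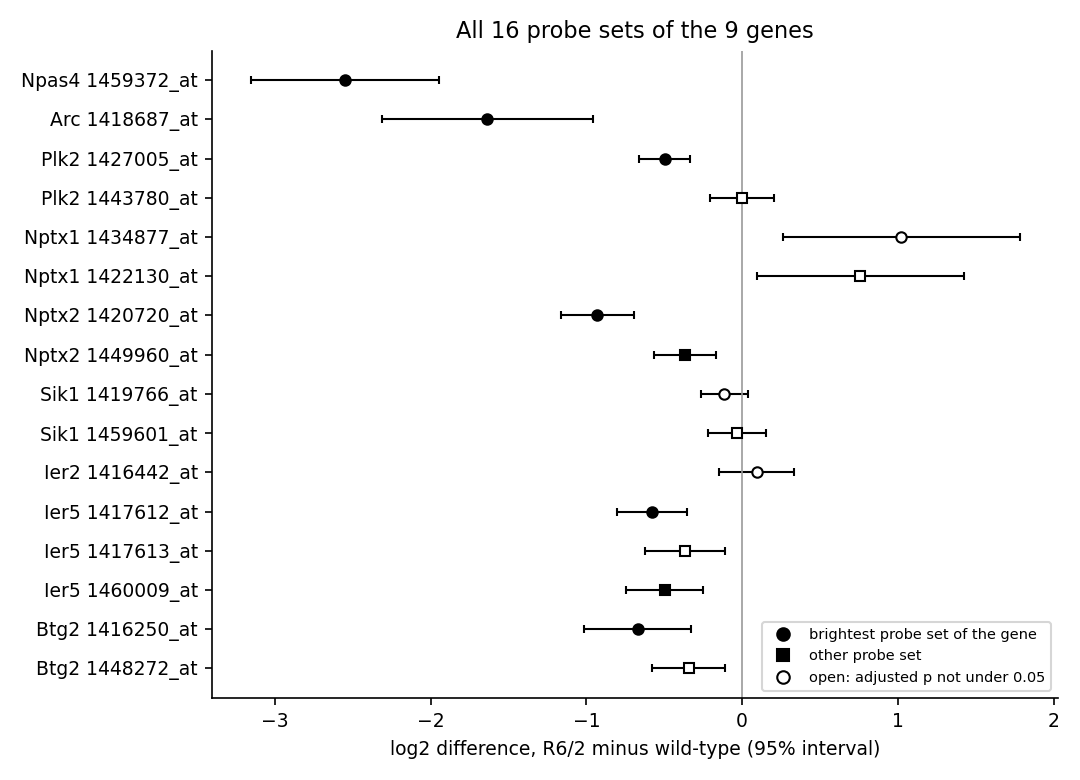
Log2 difference, R6/2 minus wild-type, of each of the 16 probe sets with its 95% interval; circles are the brightest probe set of a gene and squares the others, filled where the adjusted p over all probe sets was under 0.05. Of the 16, 8 are filled, all on the lower side.

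6 members had more than 1 probe set, which gave 8 pairs. The largest disagreements were within Nptx2 (-0.56, the brighter probe set minus the dimmer one, exact two-sided permutation p 0.00794) and Plk2 (-0.49, exact p 0.0159). After Benjamini-Hochberg adjustment over the 8 pairs both stood at 0.0635. With 126 splits a single fully separated pair among 8 can reach no lower value than this, so 1 such pair alone could not pass. In each pair of a called gene both probe sets were lower in R6/2 mice, except that the second of Plk2 showed no difference (-0.0015 ± 0.093, SE).

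Among 38 other activity-induced genes 13 were lower, 2 higher and 23 not past the threshold, with a median difference of -0.13 beside -0.02 over all genes. Egr2, a zinc finger transcription factor, read 6.68, 6.88, 6.52 and 7.95 in the wild-type mice and 4.37, 4.31, 3.87, 3.87 and 4.37 in the R6/2 mice. The groups did not overlap, with a difference of -2.85 ± 0.26 (SE, limma adjusted p 0.000143). The R6/2 values lay at or just above the lower quartile of the arrays (3.84 to 3.901), where low signal limits the size of a difference. Homer1, whose short activity-induced form loosens postsynaptic scaffolds, fell (-0.82 ± 0.07, adjusted p 0.000143), as did Inhba, which encodes an activin subunit (-0.84 ± 0.09, adjusted p 0.000315). Whether the Homer1 probe set reads the short form or the long forms was not examined. Lmna, a nuclear lamina gene, rose (0.52 ± 0.11, adjusted p 0.0114), but not after centring on housekeeping genes. The count was 4 lower and 0 higher with the cortical markers as a covariate, and 6 lower and 1 higher without the 3 choroid plexus arrays.

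Of the 20 list genes named here with a call, 2, Plk5 and Ier5l, kept it with age as a covariate. With the cortical markers as a covariate Egr2, Homer1, Inhba, Camk4, Creb1, Dlg4, Plk5 and Ier5l kept it. Without the 3 choroid plexus arrays it held for Egr2, Homer1, Inhba, Lmna, Camk4, Creb1, Srf, Plk5, Ier5l and Ppp2r2a. When all probe sets of a gene were averaged, the calls of Creb1, Gria3, Lmna, Plk4, Sipa1l1, Tob1, Tob2 and Ube3a were lost.

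**Figure D4:**
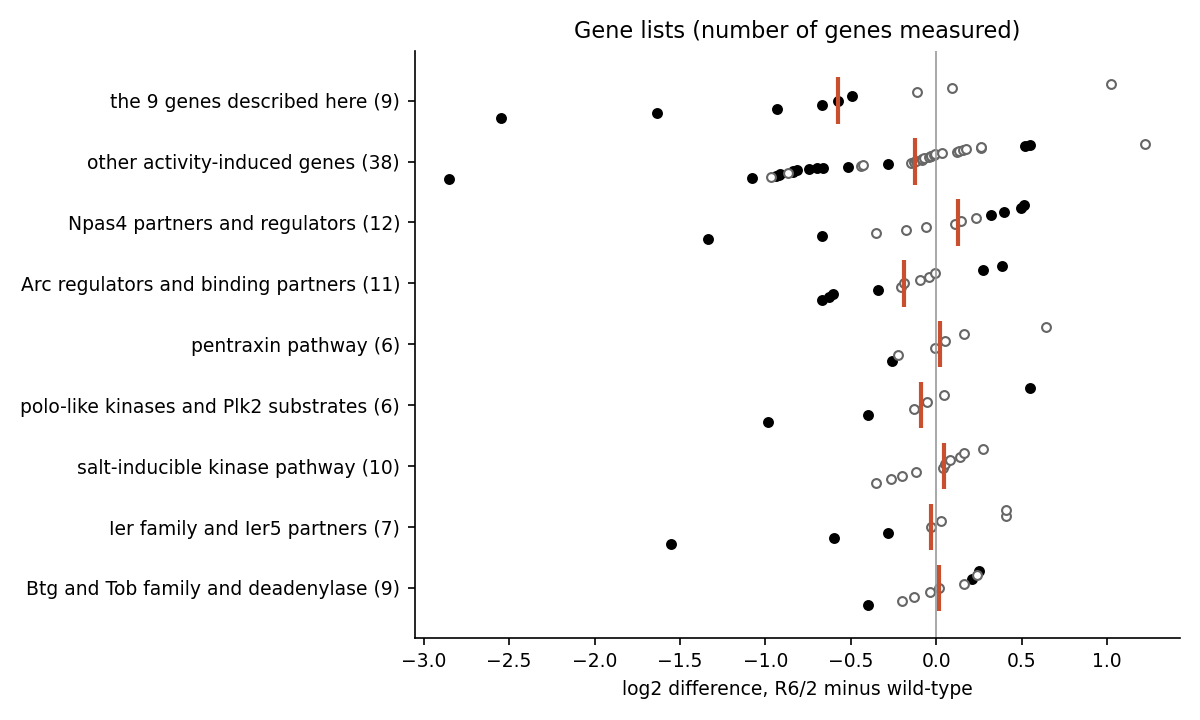
Log2 difference of every measured gene in the 9 members and in the 8 lists of other activity-induced genes and of the members' pathways, filled where the adjusted p was under 0.05, with the median of each list as a red line. The median of the members is -0.58, and those of the 8 lists lie between -0.19 and 0.13.

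The 9 genes are short and scattered. They lie on 8 chromosomes, with Btg2 and Ier5 both on chromosome 1, and their median span is 5801 bases against 20210 over all measured genes with a position. Across mice, wild-type mouse 49 was the lowest of the wild-type group in 7 of the 9 genes. R62_86 and R62_95 were the 2 highest R6/2 mice in 5 of the 9, Npas4, Arc, Plk2, Ier2 and Btg2. The genes whose deviations from the genotype means were most like those of a member over the 9 arrays were, for Arc, Nr4a1 (Pearson r 0.947), Npas2 (0.944) and Shank3 (0.930), and for Nptx1, Asap2 (0.979), Opcml (0.978) and Rtn4r (0.977). For the other members the most like gene was Trim30a for Npas4 (0.944), Abl2 for Plk2 (0.958), Cypt12 for Nptx2 (0.965), Fndc8 for Sik1 (0.976), Igkv1-135 for Ier2 (0.936), Idh3g for Ier5 (0.977) and Slc25a27 for Btg2 (0.958). These genes were picked as the highest among 18193 over only 9 arrays, in which genes share the tissue makeup of each array, and the values are a description.

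Age was not balanced, because R62_86 was the only R6/2 mouse as old as the wild-type mice. With age as a covariate limma called 0 of the 9 genes and 30 of all 18193, and 4 of the 9 had an unadjusted p under 0.05, all lower. For the other 4 R6/2 mice age and genotype cannot be told apart. The genotype difference in the fit with age is thus R62_86 minus the wild-type mean, and rests on that R6/2 mouse alone. Whether age has a part in the differences was not tested. Since the groups of the 6 called genes do not overlap, the values of R62_86 are a description: R62_86 minus the lowest wild-type mouse was, on the log2 scale, -1.59 in Npas4, -0.75 in Nptx2, -0.39 in Arc, -0.34 in Ier5, -0.23 in Plk2 and -0.15 in Btg2.

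**Figure D5:**
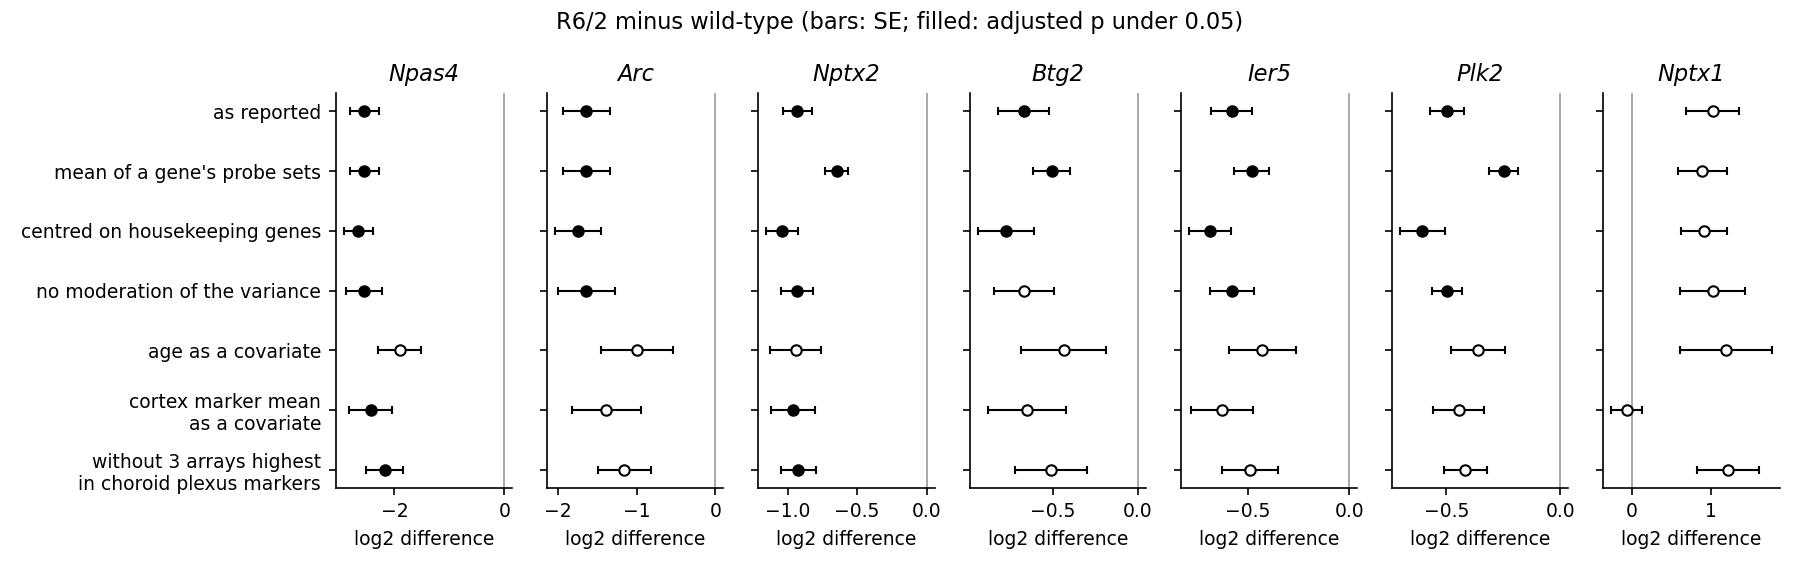
Log2 difference, R6/2 minus wild-type, with its SE for 7 of the genes under 7 settings of the fit. The 6 called genes stay below 0 in each, and none of them passed the threshold with age as a covariate. In that setting the difference is R62_86 minus the wild-type mean. Nptx1 goes from 1.02 to -0.069 with the cortical markers as a covariate.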

How the data were processed

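Striatal RNA of 9 mice (4 wild-type, 5 R6/2) was measured with 1 array each. The deposited values are log2 expression values, which the authors made with RMA (affy), per the submitters' processing notes. The sources used here give no version of either. RMA gives the arrays a shared distribution, so differences are relative within an array, and the number of arrays limits the precision. Nothing beyond the animal numbers says how the mice were kept or sampled. The p-values set the genotype difference against the spread between these mice, with the variance moderated over all genes. Of 45101 probe sets, 64 controls were left out, 34945 named exactly 1 gene and 932 named several. The brightest probe set stood for each of 18193 genes, with no filter on dim values.

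The comparison used lmFit and eBayes of limma 3.58.1 in R 4.3.3 on genotype alone, two-sided, adjusted by Benjamini-Hochberg over all genes and, separately, over all 45037 probe sets. The script was tested on simulated data. The members, the gene lists and the alternatives were chosen with earlier results of these data known. Named genes were all members, and of each list the 3 genes with the smallest p, the best-supported gene against the list's median, and family members; likeness used the highest Pearson r. Intervals are at 95%. Alternatives were centring on housekeeping genes or the array median, quantile normalization, averaging the probe sets of a gene, keeping the brighter 50% of genes, trend and robust, weighted and unmoderated variances, age or the cortical marker mean as a covariate, stricter thresholds, and leaving out mice. Positions and promoters are RefSeq's, on GRCm38.p6, and figures were drawn with matplotlib 3.10.9.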

Additional observations from a re-analysis of the deposited data

Results flagged for a closer look

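Single mice that stood apart from the rest of their group were looked for in 102 groups of 4 or 5 mice, and 5 were found; chance gives about 1 in 20 groups. In the Ier5 probe set 1417613_at, R62_95 read 6.49 while the other R6/2 mice read 6.84 to 6.94. R62_95 was also apart in Ppp2r2c, at 10.20 against 10.45 to 10.54, in Tob1, at 8.88 against 9.26 to 9.39, and in Arnt, at 7.90 against 7.45 to 7.55. Wild-type mouse 49 read 9.31 in Sik3, where the other wild-type mice read 10.005 to 10.02.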

How the results depend on the processing

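In all 3066 genes were past the threshold (1688 higher, 1378 lower). Counted anew under each setting, 2006 were called without moderation of the variance, 30 with age as a covariate, 352 with the cortical marker mean as a covariate, 882 without the 3 choroid plexus arrays, 1257 at an adjusted p under 0.01, 1186 with a log2 difference of at least 0.5, and 2183 to 2984 with 1 mouse left out. Of the 9 members 6 were called, 0 with age, 2 with the cortical mean and 2 without the choroid plexus arrays. Of the 16 probe sets 8 were called, 0 with age, 1 without the choroid plexus arrays, and 5 to 8 with 1 mouse left out. With age as a covariate, where only R62_86 stands for R6/2, the differences were -1.90 for Npas4, -0.99 for Arc, -0.36 for Plk2, -0.94 for Nptx2, -0.43 for Ier5 and -0.44 for Btg2, all past no threshold. With the cortical mean they were -1.38 for Arc, -0.44 for Plk2, -0.63 for Ier5 and -0.65 for Btg2, and without the choroid plexus arrays -1.16 for Arc, -0.42 for Plk2, -0.49 for Ier5 and -0.51 for Btg2, none of them called. Btg2 was not called without moderation (-0.67). Nptx1 turned to -0.069 with the cortical mean, was called among the brighter 50% of genes (1.02), and ranged from 0.81 to 1.23 with 1 mouse left out. Ier2 turned to -0.014 with housekeeping centring and to -0.10 with the cortical mean. The causes were not tested. With 1 mouse left out all 6 calls held, at -2.71 to -2.38 for Npas4, -1.84 to -1.41 for Arc, -0.54 to -0.44 for Plk2, -1.01 to -0.88 for Nptx2, -0.63 to -0.51 for Ier5 and -0.77 to -0.56 for Btg2. The brighter 50% of genes leaves out Npas4, Nptx2, Sik1 and Ier2, which have no value there. Of the 20 list genes named with a call, 2 kept it with age, 8 with the cortical mean, 10 without the choroid plexus arrays, 15 with housekeeping centring, 15 without moderation and 12 with probe sets averaged. No paired analysis was possible because the labels give nothing that pairs a wild-type mouse with an R6/2 mouse. Signal near the lower quartile of the arrays or under it limits the second probe sets of Plk2, Sik1 and Nptx2, and Egr2 in R6/2 mice.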
